A study of Mus musculus with 6 samples.

Results

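The genes described here are the conjugating transferases of mouse liver. They are the cytosolic and related glutathione transferases (GST), the UDP-glucuronosyltransferases (UGT) and the cytosolic sulfotransferases (SULT). Members were the protein-coding genes of the mm10 annotation whose symbols follow the naming patterns of these families, such as Gstm1, Ugt2b5 and Sult1a1. The rule found 63 of the 43346 gene IDs in the count tables, of which 22 are GST, 20 UGT and 21 SULT genes. Ugt2a1 also follows the pattern but has no ID in the tables and was not analysed here. The libraries are RNA-seq of whole liver from C57BL6 mice aged 3 months, 3 labelled Control and 3 labelled DKO. DKO stands for a double knockout of β-catenin and γ-catenin (genes Ctnnb1 and Jup) restricted to hepatocytes. The labels give no allele for the Control mice, no Cre driver and no sex. They do not say that each library came from its own animal, so p-values measure the spread between these libraries, which may be technical.

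These enzymes carry out the second phase of drug and hormone metabolism. Glutathione transferases join reactive electrophiles to glutathione, UDP-glucuronosyltransferases of the endoplasmic reticulum add glucuronic acid to bilirubin, steroids and drugs, and sulfotransferases add a sulfate group taken from the donor PAPS. The conjugates are more soluble in water and leave the hepatocyte through ABC transporters into bile or blood. Several members differ between the zones of the liver lobule or between the sexes in mice.

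The libraries labelled DKO held fewer gene reads and a smaller share of hepatocyte markers than Control, with replicate 2 nearest to Control in that share. This bears on every comparison below. Reads assigned to genes numbered 12320487 to 15869639 per Control library, and DKO replicates 1, 2 and 3 held 309731, 525037 and 1491237. The 9 hepatocyte markers found, albumin and apolipoproteins among them, summed to between 104700 and 122600 CPM (a gene's counts over 1000000 gene counts) in Control, and in DKO to 1866, 49030 and 4972 for replicates 1, 2 and 3. Olfactory receptor genes, silent in liver, summed to 6.16 to 10.4 CPM in Control and to 620 to 1259 CPM in DKO, which marks background reads. Of the other cell types, Kupffer cell markers were at 160 to 219.5 CPM in Control and 29.1 to 110.5 in DKO. Cholangiocyte markers were at 62.1 to 82.9 and 141 to 326 CPM, and lymphocyte markers at 2.84 to 4.85 and 54.3 to 110 CPM. Endothelial markers (152 to 290 against 145 to 759 CPM) and stellate cell markers (140 to 237 against 164 to 681 CPM) overlapped between the groups. The lymphocyte marker Nkg7 was at 0 in all DKO libraries. Mitochondrial genes made up 6.34% to 6.57% of Control gene counts, while DKO replicates 1, 2 and 3 had 6.27%, 14.4% and 62.7%. The part of these cell types, of mitochondrial reads and of background reads in the fold changes was not tested. In whole liver, fewer cells of a type and less RNA per cell cannot be told apart. Ctnnb1 had 2945, 2896 and 2650 reads in Control and 0, 52 and 65 in DKO (adjusted p = 0.171), and Jup had 339, 270 and 196 against 6, 1 and 11 (adjusted p = 0.0847). Without DKO replicate 1 both passed, at adjusted p = 0.0119 and 0.0434, whereas on a scale set by abundant liver genes their log2 fold changes turned to 0.94 and 3.97. Directions below are therefore between libraries as labelled.

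Before the values, 2 stretches of promoter show where the antioxidant response element core, the site of NRF2 that is best known from glutathione transferase genes, was found among the members. The core TGACNNNGC was searched on both strands of the 250 bases before 1 RefSeq start per gene, and windows of 55 members were matched. It was found in 2 of 20 GST, 0 of 18 UGT and 0 of 17 SULT windows, which is 3.64% of members, and in 10.1% of 27025 windows of all genes. Of the other motifs searched, the xenobiotic response element core GCGTG was in 14.5% of members and 28.2% of all windows, and 1 of its matches overlaps the core in Gstm5. The TATA box TATAAA was in 18.2% and 13.0%, and the HNF4 site core in 0 member windows and 0.381% of all. A match describes letters in a window and shows no binding, and no match says only that these letters are not in this window. Each line below runs from base -130 to base -1 before the start, 5′ to 3′ on the gene's own strand, from RefSeq on GRCm38.p6 (the same assembly as mm10). Capitals mark the core.
Gsta3 (chr1:21240455-21240584, plus strand): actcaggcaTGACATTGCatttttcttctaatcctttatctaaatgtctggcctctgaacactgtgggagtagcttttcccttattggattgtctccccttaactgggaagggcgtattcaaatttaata
Gstm5 (chr3:107895724-107895853, plus strand): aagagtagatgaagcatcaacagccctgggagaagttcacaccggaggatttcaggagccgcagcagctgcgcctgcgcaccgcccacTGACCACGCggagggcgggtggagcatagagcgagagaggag
These 2 genes stood far apart in Control liver, with Gsta3 at 324 and Gstm5 at 8.07 reads per kb of unshared exon, scaled to CPM.

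In Control liver the families together took 1.09%, 1.34% and 1.34% of gene counts in replicates 1, 2 and 3. Levels are given as reads per kb of exon that no other gene shares, scaled as CPM is (RPKM), which allows genes of different length to be compared. Among the glutathione transferases the pi class led. Gstp3 had 1190 ± 113 and Gstp1 824 ± 63.9 RPKM (SD, n = 3), and their Control ranges did not overlap. Gstp1 nevertheless had more reads, 20.1% of the family's against 17.0% for Gstp3. Their order thus rests on annotated exon lengths of 1548 bases for Gstp1 and 908 for Gstp3. The count of Gstp1 is also a lower limit, because it shares sequence with Gstp2 (below). Gstp1 is the classical pi enzyme that conjugates electrophiles and is known to be higher in male than in female mouse liver. Gstm1, the main mu class enzyme, followed with 673 ± 80.1 and the alpha class gene Gsta3 with 324 ± 79.4. Gstz1, a zeta enzyme that also isomerises maleylacetoacetate in tyrosine breakdown, had 165 ± 10.1 and Gstt1 of the theta class 118 ± 18.7. Gsta3 took the largest part of the family's reads, 22.1%, over long annotated exons. The other mu class genes were far below Gstm1, from Gstm3 at 54.3 ± 11.3 to Gstm5 at 8.07 ± 0.82, with Gstm4 at 24.3 ± 2.87. Gsto2 and Gstt4 were nearly silent, with 3 and 1 reads over the 3 Control libraries.

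Glucuronosyltransferases were led by the Ugt2b cluster on chromosome 5, whose enzymes conjugate steroids, bile acids and drugs. Ugt2b5 had 770 ± 133 RPKM, Ugt2b36 560 ± 122.8, Ugt2b1 298 ± 81.8 and Ugt2a3 168 ± 27.2. The Control range of Ugt2b5 (624 to 883) overlapped that of Ugt2b36 (436 to 681). Ugt1a1, the bilirubin-conjugating enzyme, had 164 ± 5.04, a value that overlapped with Ugt2a3. Reads of the Ugt1a genes need care, because 9 members between 88055388 and 88220002 on chromosome 1 use different first exons and the same later exons. Only 385 of the 2224 exonic bases of Ugt1a1 belong to it alone, and a read in the common exons cannot be given to 1 gene. Over the full exonic length Ugt1a1 would stand at 28.4 RPKM. Of the other Ugt1a genes, Ugt1a6b had 24.5 ± 2.47, Ugt1a9 23.2 ± 5.98 and Ugt1a6a 7.65 ± 0.57, whereas Ugt1a8 had no read. Ugt3a2, whose family uses other sugar donors than glucuronic acid, had 85.8 ± 6.66 and Ugt3a1 11.0 ± 2.12.

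A single sulfotransferase dominated its family. Sult2a8, which sulfates bile acids, had 324 ± 24.7 RPKM and 70.3% of the family's reads. Sult1a1, the phenol sulfotransferase, had 139 ± 37.9, Sult1d1, which acts on catecholamines and other amines, 69.0 ± 23.0, and Sult1b1, which acts on thyroid hormones, 15.8 ± 5.35. Sult2a7 (8.84 ± 3.08) and Sult5a1 (4.33 ± 1.57) were lower, and the Control range of Sult2a7 overlapped that of Sult1b1. Sult2a1, Sult2a3, Sult2a4, Sult2a5 and Sult1c1 had 0 reads in all 6 libraries, and so did Ugt1a8. For each of them 3 counts over 42143825 Control gene counts allow up to 0.0712 CPM. Sult3a1, like Sult2a1 known from female mouse liver, had no read in Control and 3 in DKO. All 3 were in DKO replicate 3, where 1.22 were expected from background. The counting interval of observed over expected reads was 0.505 to 7.16. Sult1e1, the oestrogen sulfotransferase, had 6, 2 and 3 reads in Control and 1, 1 and 1 in DKO. After TMM scaling for depth its means were 0.317 CPM in Control and 1.36 CPM in DKO. It was not tested, and 0.462, 0.489 and 1.33 reads, nearly all background, were expected in DKO replicates 1, 2 and 3. No direction is read from these reads.

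**Figure D1:**
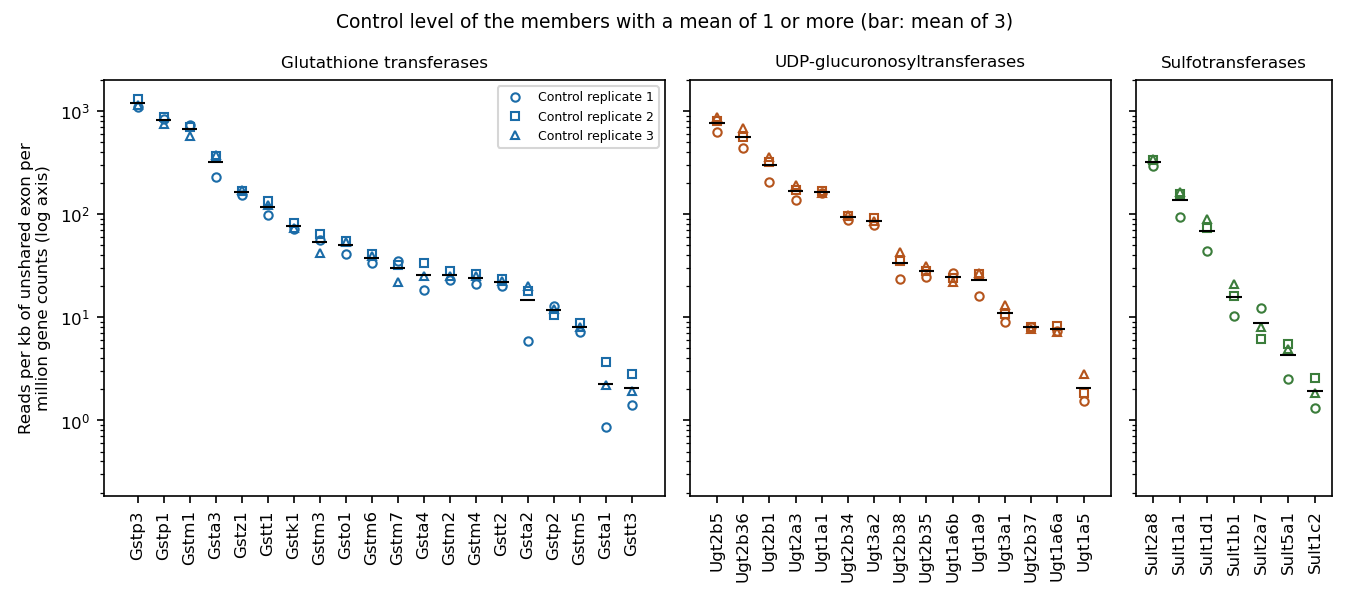
Level of each member with a Control mean of 1 RPKM or more, in RPKM over unshared exons on a log axis, with 1 symbol per Control library and a bar at the mean. In this measure Gstp3, Ugt2b5 and Sult2a8 lead their families at 1190, 770 and 324 RPKM, and the sulfotransferases fall off after the leading 3 genes.

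The Control libraries differed among themselves in these genes. Among members with at least 300 summed Control counts, Control replicate 1 had the lowest CPM for 13 of 18 GST, 11 of 14 UGT and 5 of 6 SULT genes, against 34.2% of 8527 genes at that depth. Gsta2, an alpha class enzyme, had 110, 295 and 292 reads, and Ugt2b1 had 8443, 11650 and 11536, both low in replicate 1. Gstm7 was instead highest in replicate 1, with 35.4, 32.3 and 22.2 RPKM. Ugt2b37 and Ugt1a1 varied least, with coefficients of variation of 2.54% and 3.07%.

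Sequence likeness limits what these counts can separate, because reads that align to more than 1 place carry no gene. Over words of 50 letters, Gsta1 shared 89.7% of its longest transcript with other genes, Gstp2 72.6%, Gsta2 64.2% and Gstp1 62.3%, the last mostly with Gstp2. Ugt2b5 shared 41.7%, mainly with Ugt2b38, and Sult2a2 62.1% with other Sult2a genes. Counts of these genes are therefore uncertain and are lower limits to their true level. Gstp3, Gstm4, Sult2a8 and Ugt2b1 shared none. The read length is not given in the sources used here, so the word length is only a guide.

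Each family took a smaller share of gene counts in the libraries labelled DKO than in Control. On a scale set by abundant liver genes, most of the members highest in Control had log2 fold changes above 0 (below). Among them only Sult1b1 and Sult2a7 passed the threshold of edgeR there, and Sult2a8 stayed at -1.11 (adjusted p = 0.568). GST genes took 0.586%, 0.691% and 0.632% in Control, and in DKO replicates 1, 2 and 3 they took 0.0346%, 0.359% and 0.0512%. UGT genes took 0.379%, 0.490% and 0.545% against 0.0294%, 0.307% and 0.0255%. SULT genes took 0.128%, 0.159% and 0.167% against 0.0278%, 0.0886% and 0.0161%. No DKO value reached the Control range in any family. DKO replicate 2, which had the largest share of hepatocyte markers among the DKO libraries, was the closest to Control. The two-sided exact permutation test gave p = 0.1 for each family (adjusted p = 0.1 over 3 families), the smallest that 3 against 3 libraries allow. The log2 ratios of the mean shares were -2.10, -1.97 and -1.78 for GST, UGT and SULT, and without DKO replicate 2 they were -3.89, -4.10 and -2.79. Over nuclear genes alone the shares in DKO replicate 3 were 0.137%, 0.0684% and 0.0432%, and the log2 ratios were -1.78, -1.72 and -1.46. Of the member reads in DKO replicate 1, 284 in all, 157 were expected from background alone.

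Of the 63 members, 44 passed the filter on low counts and were tested over all 15561 genes with edgeR. At an adjusted p of 0.05, 8 were lower and 3 were higher in DKO, while 33 did not pass. The background was 12.8% of all genes tested lower and 31.3% higher. Among the 23 members with at least 50 CPM in Control, 3 were lower and 0 higher, against a background of 21.3% lower and 0.193% higher at that level. The share of lower members is thus no larger than that of other genes as abundant. The median log2 fold change of the tested members was -2.33, against -0.08 for all genes, and -2.54 for the 23 abundant members against -2.20 for all 2595 genes at that level. The TMM-scaled CPM of every DKO library lay below every Control library for 32 tested members, beside 36.4% of all genes, and for all 23 abundant members, beside 87.3% of genes at that level. By family 2 of 21 GST, 6 of 16 UGT and 0 of 7 SULT genes were lower, and 1 of each family was higher. All 3 higher members were without overlap (background 34.0%), but 2 of them passed the filter only through the DKO libraries, so the count supports nothing.

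These counts moved with the processing, and so did the background. DESeq2 called 27 lower and 5 higher of 52 members with a value (background 17.7% and 37.8%). On a scale set by abundant liver genes, which shifts the median of all genes by 4.82 on the log2 scale, 2 members were lower and 10 higher (0.540% and 63.0%). With DESeq2's size factors in edgeR 18 were lower and 3 higher (23.0% and 32.4%), and with limma-voom 4 and 3 (10.7% and 29.9%). Without a filter on low counts 33 were lower and 8 higher (15.4% and 38.0%), and with a filter of 1 CPM 9 and 4 (13.5% and 32.6%). After background subtraction 4 were lower and 3 higher (20.4% and 17.4%), and with abundant-gene scaling added 3 and 8 (8.33% and 35.7%). Leaving out Control replicate 1, 2 or 3 left 4, 4 and 3 lower members (4.05%, 4.28% and 4.13%). Leaving out DKO replicate 1, 2 or 3 gave 18, 27 and 6 (22.0%, 26.7% and 12.0%). Higher members numbered 4 in each of these 6 fits (30.8%, 29.5%, 29.4%, 33.5%, 31.1% and 27.3%).

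**Figure D2:**
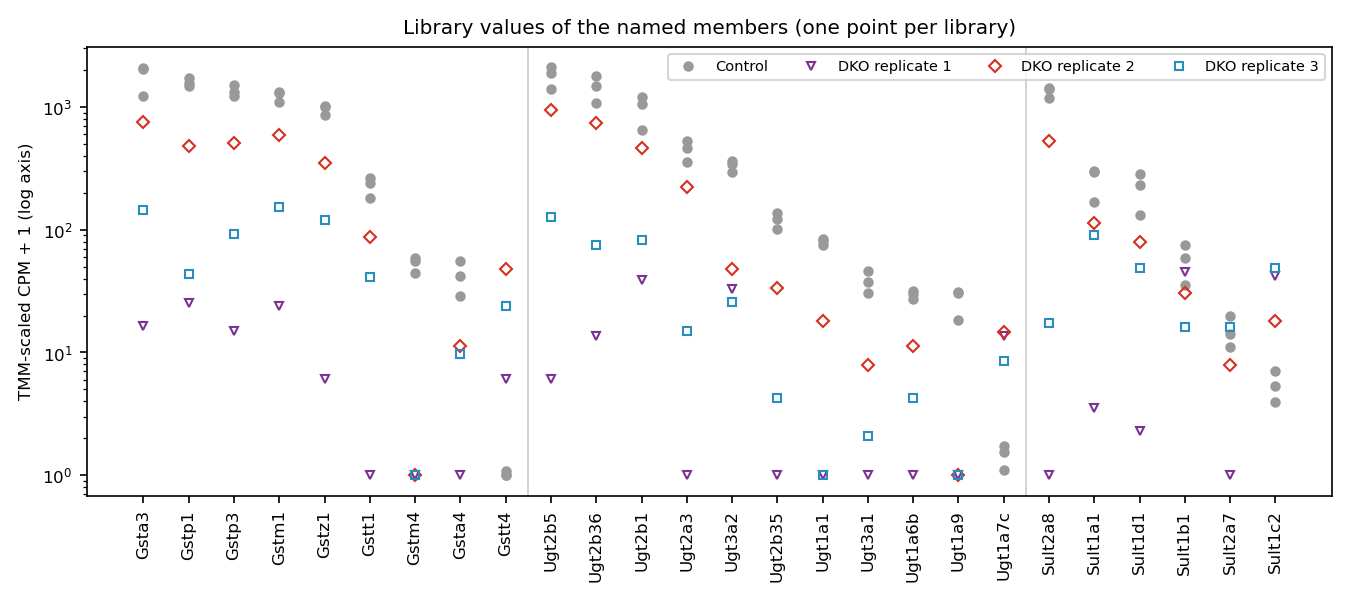
TMM-scaled CPM plus 1 on a log axis for the 26 named members, grouped as GST, UGT and SULT, with 1 point per library. Control points lie above most DKO points, DKO replicate 2 lies nearest to Control for the abundant genes, and Gstt4, Ugt1a7c and Sult1c2 show the reverse order.

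Gstm4 and Ugt1a9 were at 0 in all 3 DKO libraries. Gstm4 (ENSMUSG00000027890, chromosome 3, 108040408 to 108044894, mm10), a mu class enzyme in a cluster of 7, had 572, 635 and 529 reads in Control. With 3 counts over the group taken as the floor it was at least 39.8-fold lower with TMM scaling and at least 4.68-fold lower on the abundant-gene scale (adjusted p = 0.000856 with TMM). In DKO replicate 2, 13.0 reads were expected from Control proportions plus background, and 0 were seen. Its neighbour Gstm1 had 342 reads in that library, where 257 were expected. In DKO replicate 3, where 8.73 reads of Gstm4 were expected, Gstm6 of the same cluster also had 0 reads (12.5 expected), after 16 in replicate 2 (22.4 expected). Ugt1a9 (ENSMUSG00000090175, chromosome 1, 88070800 to 88218997), which conjugates phenols, had 227, 326 and 289 reads in Control and was at least 19.6-fold lower, or 2.30-fold on the abundant-gene scale (adjusted p = 0.00208 with TMM). Only 6.25 reads were expected in DKO replicate 2 and 3.72 in replicate 3. Both genes passed the threshold in all 15 alternatives, but with no read in any DKO library their direction could not turn.

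Both Ugt3a genes, which lie side by side on chromosome 15, were lower. Ugt3a1 had 386, 399 and 438 reads in Control and 0, 4 and 1 in DKO, or -3.98 on the log2 scale (SE 0.98, adjusted p = 0.00935). The call was lost on the abundant-gene scale (adjusted p = 0.362) and without Control replicate 3 (0.0525). Ugt3a2 had 3884, 3990 and 3304 reads in Control and 25, 27 and 23 in DKO. Its DKO reads were nearly equal in number in libraries whose depth differs several times over, and all lay below Control after scaling. It fell by 3.29 on the log2 scale (SE 0.85, adjusted p = 0.0114), and on the abundant-gene scale it turned to 2.42 (adjusted p = 0.231).

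Counts of Ugt1a1, Ugt1a6b, Ugt2b35 and Gsta4 were lower as well. Ugt1a1 (ENSMUSG00000089960, chromosome 1, 88211959 to 88218997) had 978, 912 and 771 reads in Control and 0, 10 and 0 in DKO, and fell by 3.96 on the log2 scale (SE 1.21, adjusted p = 0.0251). Ugt1a6b, which acts on small phenols, had 402, 318 and 255 against 0, 6 and 3, and fell by 2.77 (SE 0.94, adjusted p = 0.0389). Its near copy Ugt1a6a had 252, 248 and 191 reads against 2, 15 and 30, which overlap after scaling (log2 fold change -0.02, adjusted p = 0.983). Ugt2b35, with 1323, 1332 and 1299 reads against 0, 19 and 3, fell by 3.39 on the log2 scale (SE 1.16, adjusted p = 0.0399). Gsta4, which conjugates the lipid peroxidation product 4-hydroxynonenal, had 368, 596 and 394 reads against 0, 6 and 8 and fell by 2.72 (SE 0.92, adjusted p = 0.0370). After background subtraction Ugt1a1, Ugt1a6b, Ugt2b35 and Gsta4 had log2 fold changes of -3.27, -2.94, -2.95 and -3.12 but no longer passed (adjusted p = 0.209, 0.198, 0.288 and 0.0980). The calls were also lost with limma-voom (0.0548 to 0.0765) and without any 1 of the Control libraries (0.0744 to 0.143). Those of Ugt1a6b and Ugt2b35 were also lost without DKO replicate 3 (0.0709 and 0.0953). On the abundant-gene scale Ugt1a6b and Gsta4 turned to log2 fold changes of 0.30 and 0.75, and Ugt1a1 and Ugt2b35 did not pass (adjusted p = 0.246 and 0.517).

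The 3 higher members had few reads in Control. Sult1c2 (ENSMUSG00000023122, chromosome 17, 53829637 to 53846339), a sulfotransferase better known from stomach and kidney, had 39, 67 and 42 reads in Control and 32, 10 and 44 in DKO. After scaling that was 4.48 ± 1.57 against 35.2 ± 15.95 CPM (SD, n = 3 each), without overlap, and a rise of 2.98 on the log2 scale (SE 0.68, adjusted p = 0.00589). Only 2.66, 2.56 and 3.87 reads were expected in DKO replicates 1, 2 and 3. Gstt4 had 1, 0 and 0 reads in Control and 4, 27 and 21 in DKO, and Ugt1a7c had 7, 8 and 1 against 10, 8 and 7. Gstt4 and Ugt1a7c passed the filter only through the DKO libraries and so had to differ, and their calls support nothing. Expected reads, nearly all background, were 1.98, 1.47 and 3.68 for Gstt4 and 3.10, 2.27 and 5.11 for Ugt1a7c in DKO replicates 1, 2 and 3. The counting interval of observed over expected reads included 1 for Gstt4 in replicate 1 (ratio 2.02) and for Ugt1a7c in replicate 3 (ratio 1.37). The annotation of Ugt1a7c ends at 88220002, past the other Ugt1a genes (88218997 to 88219004), so its reads cannot be given to its first exon. The call of Sult1c2 held in all 15 alternatives.

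Of the 6 GST, 5 UGT and 5 SULT members with the highest Control level, Ugt1a1 alone passed the threshold. For the others all DKO values lay below Control, except for Sult1b1 and Sult2a7, which overlapped. Gstp1 had 20663, 18972 and 14378 reads in Control and 19, 278 and 39 in DKO, or -3.14 on the log2 scale (SE 1.43, adjusted p = 0.0994). Ugt2b5 had 18408, 20827 and 20222 against 4, 554 and 116 (-2.32, SE 1.60, adjusted p = 0.246). Sult2a8 had 15419, 15376 and 13808 against 0, 307 and 15 (-2.89, SE 1.88, adjusted p = 0.221). The DKO values of each of these genes spread widely, with replicate 2 the highest. Without DKO replicate 2 all 3 passed, at adjusted p = 0.00485, 0.0329 and 0.0107. For Gstp3, Gstm1, Gsta3, Gstz1 and Gstt1 the log2 fold changes ran from -2.73 to -2.29, with adjusted p from 0.134 to 0.172. For Ugt2b36, Ugt2b1 and Ugt2a3 they ran from -2.52 to -2.33 (adjusted p from 0.146 to 0.211), and for Sult1a1, Sult1d1 and Sult1b1 from -2.34 to -0.91 (0.117 to 0.234). Sult2a7 had 248, 111 and 127 reads against 0, 4 and 14 (log2 fold change -0.91, adjusted p = 0.452), with overlap after scaling. On the abundant-gene scale all of these turned positive except Sult2a8 and Ugt2a3, and the value of Sult2a7 there was 2.88 (adjusted p = 0.0280) and of Sult1b1 5.44 (0.0308). The others did not pass there, with Ugt2b5 at 0.039 and Gstp1 at 0.26 (adjusted p = 0.985 and 0.900).

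**Figure D3:**
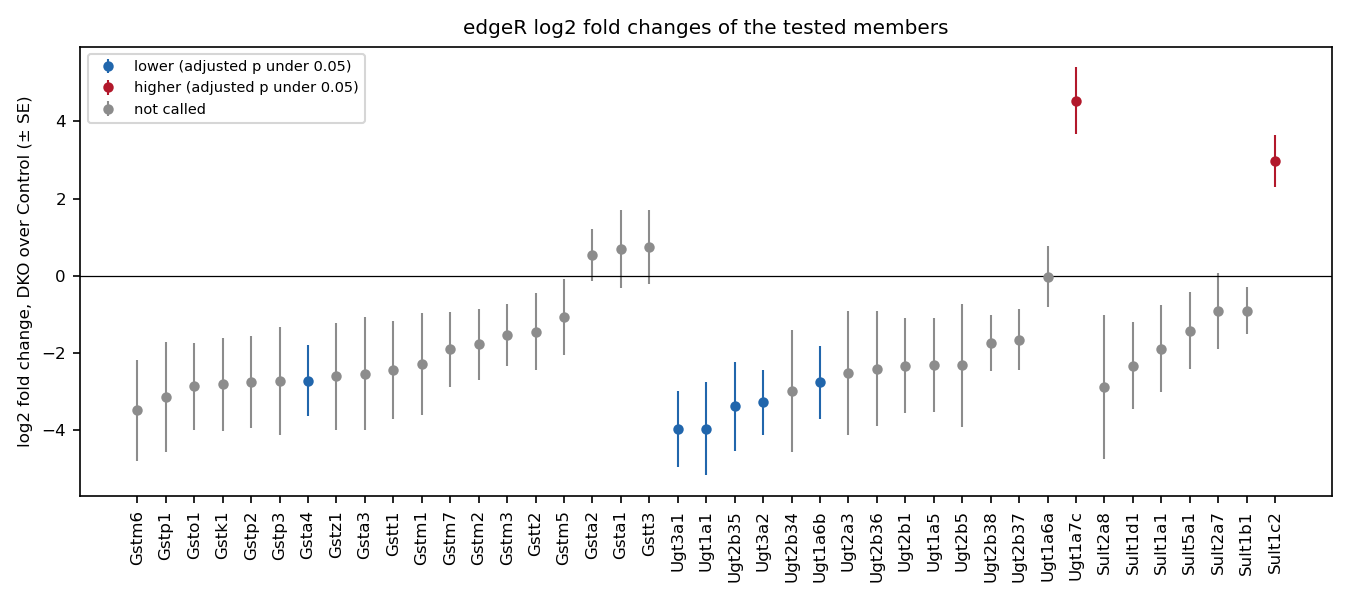
edgeR log2 fold changes, DKO over Control, with their standard errors for all tested members except Gstm4, Ugt1a9 and Gstt4, whose reads in 1 group were 0 or nearly so. Most values lie between -1 and -4, and few of them pass the threshold because the errors are wide. The called genes Ugt1a7c and Sult1c2 stand above 0, and so do Gsta1, Gsta2 and Gstt3, which were not called.

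Each DKO library was also set against the reads expected in it, which are the mean Control proportions scaled to 154 other abundant liver genes plus the background reads for the gene's length. This is a description of single libraries, with intervals that cover counting error only. In DKO replicate 2, 28 members had at least 10 expected reads with liver as the larger part, and their median ratio of observed to expected reads was 1.08 (quartiles 0.860 and 1.35). Over all 4077 such genes the median was 1.02 (0.673 and 1.44). Below a ratio of 0.5 were 2 members, Gstm4 and Ugt3a2, against a background of 15.1% of genes, and above 2 were 0 members, against 11.0%. The median of these 28 members thus lay near that of all such genes, while single members departed from it. Members with fewer expected reads are not covered. Some of those lay far off in either direction, such as Gsta2 (26 reads where 5.91 were expected) and Ugt1a9 (0 where 6.25 were expected). Ugt3a2 had 27 reads where 70.5 were expected, a ratio of 0.383 (95% exact Poisson interval 0.252 to 0.557), and against single Control libraries the ratio ran from 0.365 to 0.402. Gstp1 stood at 0.840 (0.744 to 0.945), Gstp3 at 1.06, Gstz1 at 0.999 and Sult2a8 at 1.11 (0.993 to 1.25). Gstm1 was at 1.33 (1.19 to 1.48), Ugt2b5 (554 reads, 369.5 expected) had an interval of 1.38 to 1.63 and Ugt2b36 was at 1.44 (1.30 to 1.58). The value of Ugt2b5 ran from 1.32 against Control replicate 3 to 1.79 against Control replicate 1, and that of Ugt2b36 from 1.19 to 1.78, so they rest in part on which Control library is used.

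**Figure D4:**
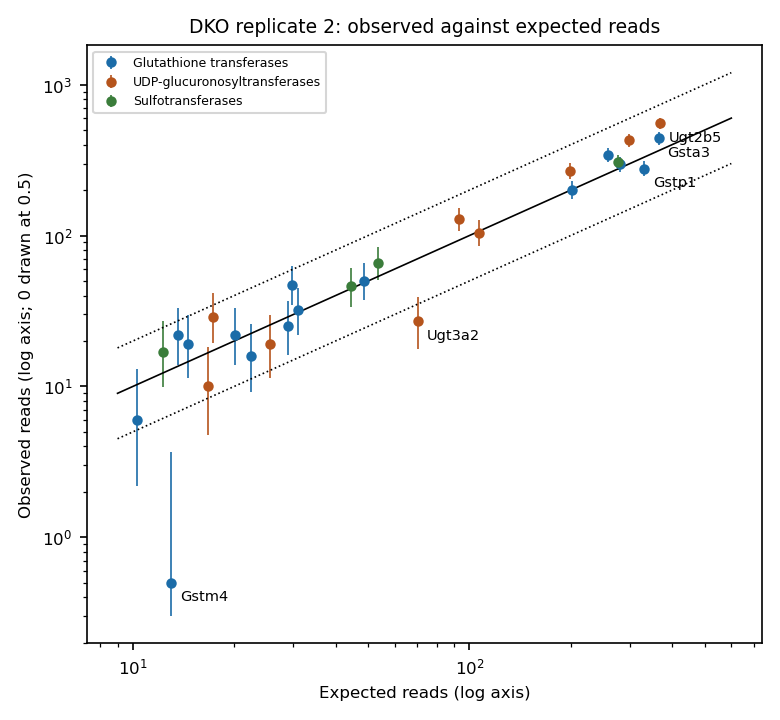
Observed against expected reads of 28 members in DKO replicate 2, both on log axes, with exact Poisson intervals. The solid line marks equality and the dotted lines a ratio of 0.5 and 2, and Gstm4 (0 reads, drawn at 0.5) and Ugt3a2 (27 reads where 70.5 were expected) lie below the lower one.

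DKO replicate 3 gave a more uneven picture of the same enzymes. Of 16 members with enough expected reads, 4 lay below 0.5 (background 12.0%) and 3 above 2 (background 34.0%). Their median ratio was 1.14 (quartiles 0.494 and 1.79), while over all 966 such genes it was 1.42 (0.815 and 2.52). Sult2a8 had 15 reads where 75.9 were expected, a ratio of 0.198 (0.111 to 0.326), and Gstp1 had 39 where 92.1 were expected (0.424, 0.301 to 0.579). Gstk1 and Ugt2a3 were also below. Sult1a1 had 83 reads where 18.2 were expected (4.56, 3.64 to 5.66), Sult1d1 44 where 14.1 were expected (3.11), and Gstt1 37 where 17.5 were expected (2.11). Ugt3a2 was at its expected number in this library (23 reads, 23.1 expected), which is below the median ratio of all genes there but within their quartiles. The low Sult2a8 of DKO replicate 3 was thus not seen in replicate 2. The ratio under 0.5 of Ugt3a2 in replicate 2 was not seen in replicate 3.

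In DKO replicate 1 no member had enough expected reads. Its member reads were concentrated in a few genes, with 35 for Sult1b1, 32 for Sult1c2, 30 for Ugt2b1, 26 for Gsta2 and 25 for Ugt3a2, where 1.17, 2.66, 3.78, 2.32 and 4.19 were expected. Gstk1, Gsto1, Gstt1, Sult2a8, Ugt2a3 and Ugt2b34 had 0. Reads carry no molecular identifiers, so copies of 1 molecule cannot be told from separate molecules.

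Genes that supply or regulate these enzymes were taken from 7 lists. Of 14 tested genes of glutathione supply 4 were lower and 2 higher. The background for this and every other list was 12.8% of all genes tested lower and 31.3% higher. At 50 CPM or more in Control it was 21.3% and 0.193%. The lower ones were Chac1 and Chac2, which degrade glutathione, with 45, 108 and 137 reads against 0, 0 and 1, and 605, 642 and 633 against 0, 0 and 14, and also Oplah and the glutaminase gene Gls2. Gclc, the rate-limiting step of glutathione synthesis, stood at -1.97 on the log2 scale (adjusted p = 0.0681). The cystine carrier gene Slc7a11 (1, 0 and 0 reads against 49, 11 and 68) and Ggt1 (1, 0 and 0 against 7, 9 and 9) were higher and nearly silent in Control. Of 8 membrane-bound transferases and relatives 1 was lower (Clic4) and 2 higher (Mgst2 and Hpgds, with at most 11 Control reads in all). Mgst1, the abundant microsomal glutathione transferase, had 63341, 68810 and 68297 reads against 6, 1594 and 261 (log2 fold change -2.59, adjusted p = 0.248).

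The background for the lists of the other conjugation routes was again 12.8% lower and 31.3% higher. Of 9 tested genes of UDP-glucuronic acid supply and glucuronide cleavage 0 were lower and 1 was higher. The higher gene was Uxs1 (log2 fold change 1.76, adjusted p = 0.0285), and its call is not read as a higher supply. Ugdh, which makes UDP-glucuronic acid, had 1438, 1809 and 1831 reads against 30, 99 and 77 (-0.68, adjusted p = 0.491). Of 10 PAPS and sulfate genes 2 were lower and 1 higher. Papss2, the main liver synthase of PAPS, had 1791, 1944 and 1542 reads against 5, 28 and 24 (-2.57, SE 0.82, adjusted p = 0.0303), a value that turned to 1.58 on the abundant-gene scale. Tpst2, a tyrosine sulfotransferase of the Golgi, was also lower (-2.75) and the sulfate carrier Slc26a2 higher (3.10, adjusted p = 0.0115). Of 8 conjugate exporters 0 were lower and 3 higher, namely Abcc1, Abcc4 (log2 fold change 4.31) and Abcc5 (2.83). Abcc4 had 24, 13 and 13 reads in Control, too few to pass the filter without the DKO libraries, so its call supports nothing. The canalicular exporter Abcc2 had 8488, 6477 and 5766 reads against 4, 140 and 27 (-2.75, adjusted p = 0.124).

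Of 17 tested regulators of xenobiotic genes 2 were lower and 2 higher (background 12.8% and 31.3%). Keap1, the inhibitor of NRF2, had 746, 765 and 641 reads against 2, 1 and 10 (-3.59, SE 0.75, adjusted p = 0.00378), a value that turned to 1.06 on the abundant-gene scale. Nr1i2, the pregnane X receptor that induces many UGT and SULT genes, had 1822, 1088 and 1118 reads against 14, 19 and 33 (-2.04, adjusted p = 0.0242). Its call was not followed through the alternatives, nor were those of Chac1, Chac2, Oplah, Gls2, Clic4 and Tpst2. A link of Nr1i2 to the members was not tested. The calls of Cux2, Slc7a11, Ggt1, Mgst2, Hpgds and Abcc1 support nothing. These 6 genes, like Abcc4, passed the filter only through the DKO libraries. Cux2, a factor higher in female than in male mouse liver, had 2, 1 and 3 reads against 18, 45 and 100, and Maf was higher by 2.34. NRF2 itself (Nfe2l2) stood at -2.10 (adjusted p = 0.185). Of 12 other conjugating enzymes 4 were lower and 0 higher, beside the same background. The lower ones included the acyl-CoA synthetase gene Acsm3 (-3.25, adjusted p = 0.0208) and the thiopurine methyltransferase gene Tpmt (-1.69, adjusted p = 0.0354). The calls of Papss2, Tpmt, Acsm3, Uxs1 and Slc26a2 were each lost without any 1 of the Control libraries (adjusted p from 0.0518 to 0.136). The list medians ran from -2.56 in these other enzymes to 0.56 in the membrane-bound relatives, beside -0.08 over all genes.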

How the data were processed

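RNA-seq read counts of 3 Control and 3 DKO mouse liver libraries were used. The deposited values are whole-number counts per Ensembl gene ID, and the submitters' processing notes name STAR, HTSeq and mm10. No version, strand setting or annotation release was found in these sources, so overlapping and antisense genes may share reads. The 5 rows that name no gene held 65.1% to 66.7% of reads in Control and 95.3% to 97.3% in DKO, and entered neither library sizes nor tests.

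Names, positions and exon lengths came from GENCODE M21, which matched 42462 IDs and left 884. The test was edgeR 4.0.16 (quasi-likelihood, robust, TMM, filterByExpr, Benjamini-Hochberg over all genes, two-sided) in R 4.3.3. The SE is the log2 fold change over the root of F. Alternatives were DESeq2 1.42.0, limma-voom (limma 3.58.1), other scalings and filters, background subtraction, leaving out single libraries and a replicate block. Background was estimated in 10 GC bins over 8510 coding genes whose summed Control count was 10 or less. Abundant genes were 154 non-member genes with over 30000 Control counts. The fits were checked on simulated counts drawn from Control proportions without background reads. That setting is unlike the DKO libraries, so the check says nothing about the fits on them. No 2 libraries held identical values or agreed within sampling noise.

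Named genes are the 6 GST, 5 UGT and 5 SULT members highest in Control, up to 8 lower and 6 higher members, and up to 2 called genes per supporting list. Other supporting genes, and members in the text on single libraries, sequence likeness and Control order, were chosen after their values were seen. Members and lists were chosen with earlier results of these data known. The replicate numbers did not pair the libraries, with correlations of deviations of 0.138, 0.109 and -0.00789 for numbers 1, 2 and 3. Some items withheld for evaluation are not reported here.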

Additional observations from a re-analysis of the deposited data

Results flagged for a closer look

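Reads aligned to 1 place outside any gene, which no comparison above uses, made up 66.7% ± 6.44 of all reads in the libraries labelled DKO and 38.9% ± 1.51 in Control (SD, n = 3 each), with no overlap between the groups. They were looked at again because they are a signal outside the gene counts that exceeds its level in Control.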

How the results depend on the processing

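The number of lower members was 8 and moved with most choices. It was 27 with DESeq2, 33 without a filter, 18 with DESeq2's size factors in edgeR, 4 with limma-voom, 4 after background subtraction, 2 with scaling on abundant liver genes and 3 with both. It ran from 3 to 27 when single libraries were left out, was 9 with the filter of 1 CPM and 12 with the replicate block (background 14.0%, and 26.6% for higher). The number of higher members was 3 and became 5 with DESeq2, 8 without a filter, 10 with scaling on abundant genes and 8 with background subtraction as well, and ran from 3 to 4 in the other alternatives. The log2 ratios of the summed shares of GST, UGT and SULT genes kept their sign, and ran from -3.89 to -1.63, from -4.10 to -1.49 and from -2.79 to -1.38 when single libraries were left out. The correlations of deviations did not pair the libraries, so the replicate block is given as a setting only, and it changed the call of 0 of 26 named members, while Uxs1 (adjusted p = 0.117) and Tpmt (0.0977) lost theirs.

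Scaling on abundant liver genes, which shifts the median of all genes by 4.82, reversed 16 of 26 named members, and 14 with background subtraction added. Without and with that subtraction the log2 fold changes were 0.32 and 0.74 for Gstp3, 0.26 and 0.75 for Gstp1, 1.03 and 1.42 for Gstm1, 0.36 and 0.45 for Gsta3, 0.37 and 0.047 for Gstz1, and 0.51 and 0.51 for Gstt1. They were 0.039 and 0.18 for Ugt2b5, 0.28 and 0.65 for Ugt2b36, 1.56 and 2.26 for Ugt2b1, 2.42 and 3.13 for Ugt3a2, 1.53 and 1.35 for Sult1a1, 0.94 and 0.82 for Sult1d1, 5.44 and 6.33 for Sult1b1, and 2.88 and 2.81 for Sult2a7. They were 1.58 and 0.016 for Papss2, 3.42 and 3.19 for Tpmt, and 0.94 and 0.75 for Ctnnb1. Without the subtraction Gsta4 was at 0.75, Ugt1a6b at 0.30, Keap1 at 1.06, Acsm3 at 0.50 and Jup at 3.97. Over full exon lengths the order of the 5 leading GST and SULT members was repeated, while Ugt1a1 went from rank 5 to 8 in its family. Depth limits members with under 10 expected reads, which in DKO replicate 1 are all of them.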
